A study of Mus musculus with 6 samples.

Results

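The genes described here are 41 interferon-stimulated genes, a set whose transcripts are switched on by type I interferon. They were chosen by name, as the rows of the count table whose Ensembl identifiers carry the listed symbols. The list was drawn up with earlier results of these data known. All 41 were found among the 55335 identifiers of the table. The libraries hold RNA of P14 CD8+ T cells, whose transgenic receptor recognizes the GP33-41 peptide. The mice that received them were of the C57BL/6 strain and bore B16-GP33-41 melanoma, a mouse tumor line that expresses this peptide, and the transfer was made on day 11 after implantation. Donor cells labelled P14 TIL (3 libraries) were sorted from the tumors and those labelled P14 Sp (3 libraries) from spleens of the same tumor-bearing mice. Every sample is labelled with the C57BL/6 strain, the P14 TCR transgenic genotype, an age of 10 weeks and sorting as the treatment. The labels differ between the groups in the tissue and in the ending of the sample codes. A Percoll step preceded sorting for the tumors, and none is mentioned for the spleens. The sources used here do not give the number of mice behind each library, any pooling, the number of cells transferred or the day of harvest.

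Type I interferons bind the receptor made of IFNAR1 and IFNAR2, which activates the kinases JAK1 and TYK2. These phosphorylate STAT proteins, among them STAT2, which with IRF9 bind the interferon-stimulated response element in the promoters of target genes. The products act against viruses by binding or cutting foreign RNA, by blocking viral budding or replication, and by tagging proteins with the ubiquitin-like modifier ISG15. In CD8+ T cells type I interferon is known as a signal that can support expansion and survival and also restrain proliferation, and interferon gamma induces an overlapping set of genes.

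All 41 genes passed the filter on low counts, and all 41 were lower in P14 cells from tumor than in those from spleen (quasi-likelihood test in edgeR, adjusted p by Benjamini-Hochberg from 4.7e-11 to 0.0066), with 0 higher. Of the 19783 genes tested in the same fit, 35.9% were lower and 34.8% were higher. The median log2 fold change (tumor over spleen) was -1.40 over the 41 genes and -0.02 over all genes tested. At the median, the tumor level was thus 37.9% of the spleen level. The difference was at least 2-fold for 32 of the 41 genes, a size that 14.5% of all genes tested reached in this direction. Every tumor library was below every spleen library for 41 of 41 genes, which held for 39.4% of all genes tested. In bulk libraries, fewer cells that carry a transcript and less of it per cell cannot be told apart.

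**Figure D1:**
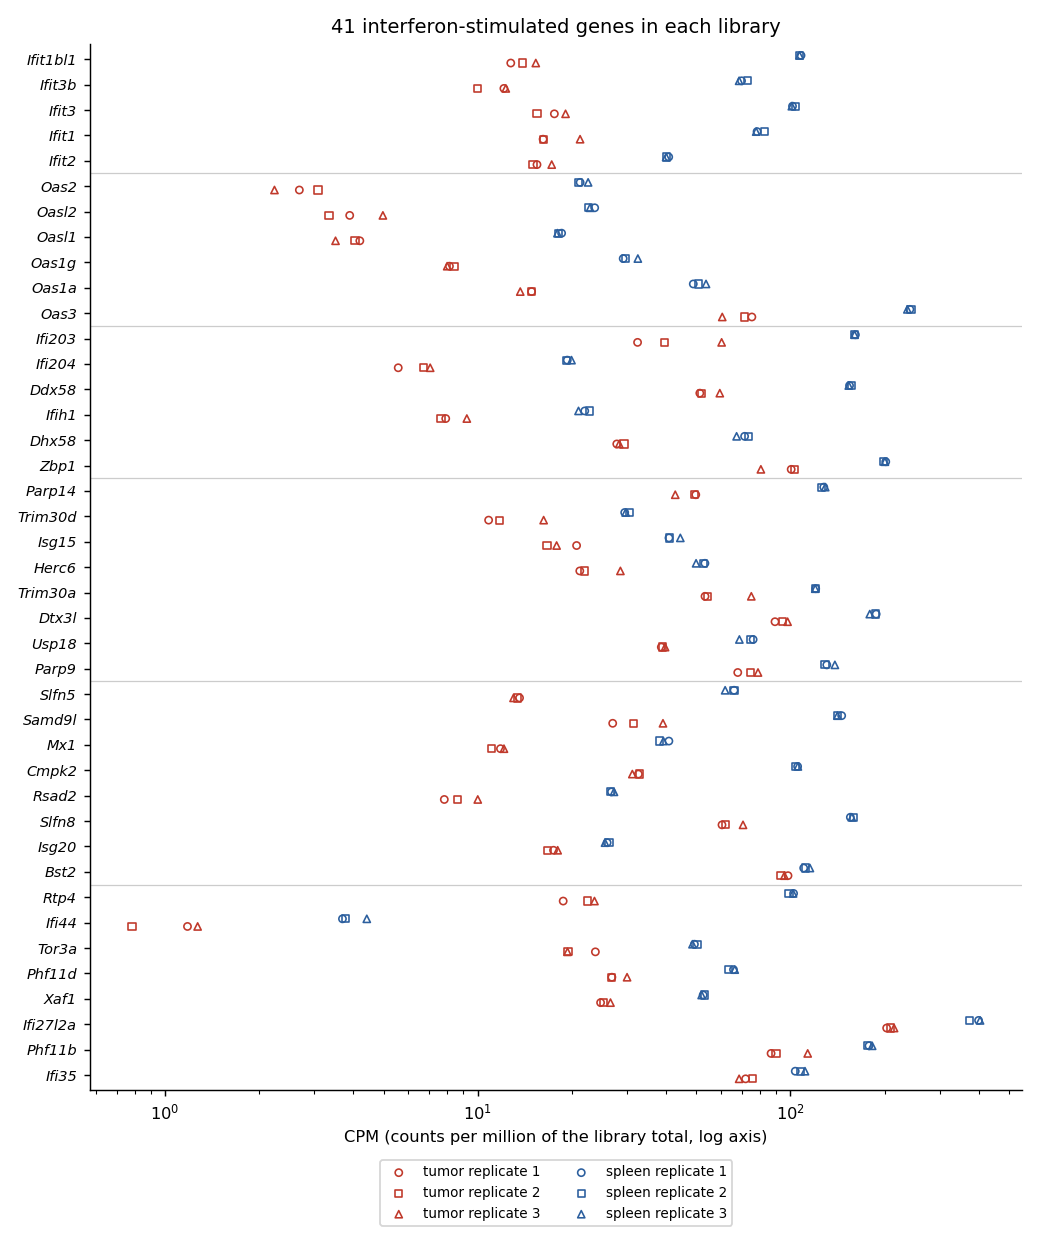
Level of each of the 41 genes in each library, in CPM (counts scaled to a common library total) on a log axis, with tumor libraries in red and spleen libraries in blue and a marker shape for each replicate number. Horizontal lines separate, from top to bottom, the IFIT family, the OAS family, nucleic acid sensors, the ISG15 and ubiquitin pathway, restriction factors and antiviral enzymes, and other interferon-induced genes. The 3 tumor libraries lie to the left of the 3 spleen libraries in every row, most closely for Bst2.

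Summed over the 41 genes, the tumor libraries held 1486, 1515 and 1607 CPM and the spleen libraries 3810, 3783 and 3808 CPM (replicates 1, 2 and 3 in each tissue). The groups did not overlap, and the spleen mean was 2.47 times the tumor mean. An exact permutation test (two-sided) gave p = 0.1, the smallest p that 3 libraries against 3 can give. Each of the 41 genes already separated the tissues, and they were chosen with earlier results known. This p was therefore fixed beforehand and adds no support. The genes made up 0.154% of all counts in tumor and 0.380% in spleen. Library totals ranged from 35095261 to 38263483 counts, and every member had at least 30 counts in every library.

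The label was checked against markers of the cell types a sort could hold. The summed level of 10 CD8+ T cell genes (Cd3 chains, Cd8 chains, Lck and others) was 4502 to 4654 CPM in tumor and 4998 to 5055 CPM in spleen. Divided by that sum, the 41 genes stood at 0.337 ± 0.0076 in tumor and 0.755 ± 0.0070 in spleen (SD, n = 3 each), a ratio of 2.24. Of these 10 genes, 3 were higher in tumor, 4 were lower and 3 did not pass. The call of 1 higher gene, Cd5 (log2 0.15, adjusted p = 0.025 by edgeR), was lost under 5 of the 13 alternatives other than the null of a 2-fold change (upper-quartile scaling, the replicate block, and without tumor replicate 2, spleen replicate 1 or spleen replicate 2), with adjusted p from 0.051 to 0.12. Markers of other cells differed between the tissues as well. The 12 B cell genes summed to 282 to 284 CPM in tumor, most of it Ighm, and to 1443 to 1446 CPM in spleen, and 12 of 12 were lower in tumor. Cr2, which marks mature B cells, had 0 counts in tumor. The 10 dendritic cell and MHC class II genes summed to 81.4 to 88.0 CPM in tumor and 1785 to 1825 CPM in spleen (9 of 9 tested lower, with Clec9a and Cd209a at 0 counts in tumor), and Zbtb46 lost its call without spleen replicate 1 (adjusted p = 0.053 by edgeR). The 12 macrophage and monocyte genes summed to 42.4 to 43.6 CPM and 275 to 292 CPM (12 of 12 lower), and the 8 neutrophil genes to 0.653 to 0.967 CPM and 21.7 to 25.2 CPM (7 of 7 tested lower, with Ngp at 0 counts in tumor). Plasmacytoid dendritic cell genes summed to 410 to 464 CPM in tumor and 121 to 123 CPM in spleen, most of it Irf8, which activated T cells also express. NK cell genes summed to 15.1 to 21.8 CPM in tumor and 8.69 to 9.90 CPM in spleen, CD4+ T cell genes to 44.5 to 47.9 and 58.7 to 59.9 CPM, and erythroid genes to 247 to 274 and 207 to 210.1 CPM. Melanoma genes summed to 9.65 to 10.9 CPM in tumor and 19.4 to 21.4 CPM in spleen, but nearly all of this was Pmel (8.54 and 19.8 CPM on average). Dct and Tyrp1, pigment enzyme genes, went the other way, with 51 and 64 counts in tumor against 1 and 0 in spleen, and Dct was picked with its values already known. Such cells also respond to interferon, and the part of their RNA in the spleen level of the 41 genes was not tested. The sample codes end alike within each tissue and differently between tissues, so any batch they stand for and the tissue cannot be told apart.

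**Figure D2:**
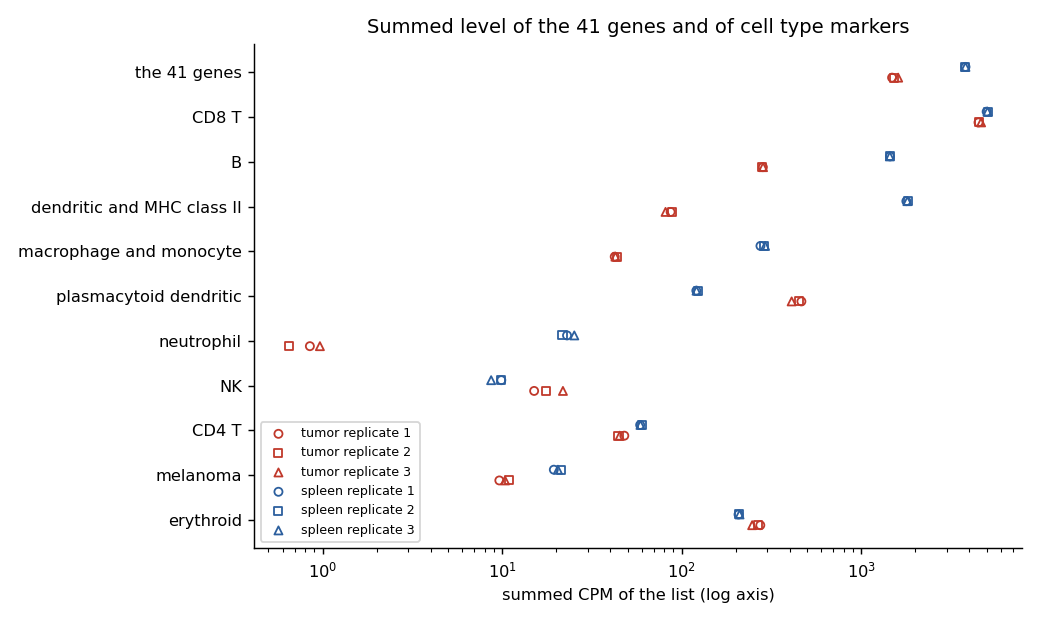
Summed CPM, on a log axis, of the 41 genes and of 10 lists of cell type markers in each library, with tumor in red, spleen in blue and a marker shape for each replicate number. The 41 genes and the B cell, dendritic cell, macrophage, neutrophil, CD4+ T cell and melanoma lists are lower in tumor. The CD8+ T cell list is lower by a smaller share, at 4502 to 4654 CPM in tumor and 4998 to 5055 CPM in spleen. Plasmacytoid dendritic cell, NK cell and erythroid lists are higher in tumor.

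Promoter sequences show what several of the genes share. RefSeq promoter windows (build GRCm38.p6, from 250 bases before to 50 bases after the transcription start) were found for 30 of the 41 genes and searched on both strands for GAAA, any 2 bases and GAAA again, a core of the interferon-stimulated response element. It was present for 18 of the 30 genes (60.0%), against 3.99% of the 27025 genes with a window, 4.02% of the tested genes with a window and 3.44% of all 32851 windows. The median log2 fold change was -1.67 for the 18 genes with a match and -1.26 for the 12 without, with ranges from -2.91 to -0.20 and from -2.47 to -0.55 that overlap over most of their length. The core of the gamma-activated sequence, TTCNNNGAA, an element of genes induced by interferon gamma, was present for 5 of the 30 genes (16.7%) and for 9.55% of all genes with a window. This motif reads the same on either strand. Those 5 genes were Bst2, Isg20 and Ifi35, which had the 3 smallest differences of the 41, and Ifit2 and Oas1a (log2 fold changes of -0.20, -0.55, -0.55, -1.31 and -1.79). Bst2 and Oas1a hold both motifs, which overlap in Bst2 and lie apart in Oas1a. A match is a string of letters in a window, and none was tested as a binding site here.

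The 250 bases before the start are printed for 6 genes, from 5′ to 3′ on the gene's strand, with the response element core in capitals. Isg15, a common marker of the response, has 3 overlapping matches. Ifit3 and Ifit3b are neighbouring near copies with like differences. Ifit1bl1 and Bst2 had the largest and the smallest difference among the genes with a match, and Samd9l was 4.31-fold lower with 0 matches in its window. They lie at chr4:156200819-156201068 (minus strand), chr19:34583279-34583528 and chr19:34607707-34607956 (plus), chr19:34601969-34602218, chr8:71537473-71537722 and chr6:3399572-3399821 (all minus).
Isg15: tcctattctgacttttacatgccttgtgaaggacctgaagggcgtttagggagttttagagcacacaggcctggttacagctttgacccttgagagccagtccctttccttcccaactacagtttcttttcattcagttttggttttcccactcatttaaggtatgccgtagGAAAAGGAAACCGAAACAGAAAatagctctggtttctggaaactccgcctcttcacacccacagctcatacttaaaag
Ifit3: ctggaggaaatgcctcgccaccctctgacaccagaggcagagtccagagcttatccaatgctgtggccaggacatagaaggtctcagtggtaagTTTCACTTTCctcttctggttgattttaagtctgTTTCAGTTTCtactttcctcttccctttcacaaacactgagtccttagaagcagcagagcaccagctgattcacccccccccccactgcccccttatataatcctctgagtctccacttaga
Ifit3b: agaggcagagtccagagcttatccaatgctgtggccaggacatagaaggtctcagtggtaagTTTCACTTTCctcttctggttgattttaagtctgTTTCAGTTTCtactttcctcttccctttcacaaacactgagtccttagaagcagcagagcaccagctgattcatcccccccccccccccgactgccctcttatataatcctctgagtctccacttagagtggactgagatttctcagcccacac
Ifit1bl1: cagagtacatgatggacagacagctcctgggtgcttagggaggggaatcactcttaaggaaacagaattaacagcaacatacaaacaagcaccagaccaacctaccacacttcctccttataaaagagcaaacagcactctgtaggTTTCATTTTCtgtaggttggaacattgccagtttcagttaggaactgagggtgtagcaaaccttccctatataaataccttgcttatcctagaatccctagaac
Bst2: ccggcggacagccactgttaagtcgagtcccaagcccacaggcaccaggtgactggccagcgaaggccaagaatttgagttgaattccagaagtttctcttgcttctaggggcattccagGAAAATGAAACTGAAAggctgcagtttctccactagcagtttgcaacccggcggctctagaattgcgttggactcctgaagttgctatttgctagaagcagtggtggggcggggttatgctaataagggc
Samd9l: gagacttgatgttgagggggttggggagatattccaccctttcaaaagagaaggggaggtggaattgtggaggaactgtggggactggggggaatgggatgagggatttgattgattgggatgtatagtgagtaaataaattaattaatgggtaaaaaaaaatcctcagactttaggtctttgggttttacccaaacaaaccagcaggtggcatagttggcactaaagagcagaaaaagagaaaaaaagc
Positions count from the start site, with -1 the base before it. In Isg15 the matches begin at -78, -72 and -66 and form 1 run. In Bst2 they begin at -130 and -124 and also overlap. In Ifit3 they begin at -156 and -122 and in Ifit3b at -188 and -154, all on the opposite strand. The 300-base windows of this pair aligned over 340 columns, gaps included, of which 258 were identical (75.9%). Gaps count as differences in this share, and the windows hold a common stretch at shifted positions. The share therefore understates how alike that common stretch is.

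The IFIT family had the largest median difference of the 6 role groups, with a log2 fold change of -2.53 (range -2.91 to -1.31, 5 of 5 lower). IFIT proteins bind the ends of viral RNA or associate with one another and block translation. All 5 genes lie on chromosome 19 between 34550694 and 34650009 (mm10). Ifit1bl1 (ENSMUSG00000079339.7), a relative of Ifit1, was at 12.8, 13.9 and 15.3 CPM in tumor replicates 1, 2 and 3 and at 108, 107 and 107 CPM in spleen replicates 1, 2 and 3. The highest tumor library was far below the lowest spleen library, and the gene was 7.53-fold lower in tumor (log2 fold change -2.91, SE 0.07, adjusted p = 4.7e-11). Ifit3 was at 17.6, 15.5 and 19.1 CPM in tumor and 102, 104 and 101 CPM in spleen, 5.76-fold lower (log2 -2.53, SE 0.08). Ifit1, which recognizes the cap structure of foreign RNA, was at 16.2, 16.2 and 21.2 CPM in tumor and 78.2, 82.4 and 77.7 CPM in spleen. Tumor replicate 3 was the highest of the tumor libraries for both genes and still far below spleen, and Ifit1 was 4.36-fold lower. Ifit2 differed least in the family, with 15.5, 15 and 17.2 CPM in tumor and 40.8, 40.2 and 40.0 CPM in spleen (2.49-fold, log2 -1.31, SE 0.07). Its tumor libraries were close together and well apart from spleen. Ifit3 and Ifit3b share sequence, with 51.2% of the 50-base words of Ifit3 transcripts also in Ifit3b, so the split of reads between them is uncertain. Ifit3b alone was at 12.1, 9.98 and 12.3 CPM in tumor and 69.8, 72.7 and 68.5 CPM in spleen (6.02-fold). Summed, the pair averaged 28.8 ± 3.05 CPM in tumor against 172 ± 3.51 in spleen (SD, n = 3 each), a ratio of 5.98 that does not depend on the split.

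The OAS family was lower by a median log2 fold change of -2.03 (range -2.98 to -1.77, 6 of 6 lower). Oligoadenylate synthetases sense double-stranded RNA and make the messenger that activates RNase L, which cuts RNA, while the OASL proteins are relatives with roles in sensing and translation. Oas2 (ENSMUSG00000032690.16) had the largest difference of the 41 genes, with 2.69, 3.08 and 2.24 CPM in tumor and 21.2, 21 and 22.5 CPM in spleen (7.91-fold, log2 -2.98, SE 0.12, adjusted p = 1.8e-09). The tissues were far apart, though the tumor level was low. Oas3, which responds to long double-stranded RNA, was at 75.3, 71.2 and 60.5 CPM in tumor and 241, 243 and 237 CPM in spleen (3.41-fold). For this gene tumor replicate 3 was the lowest of the tumor libraries, as it was for Oas2. Oasl2 was at 3.89, 3.35 and 4.97 CPM in tumor and 23.7, 22.5 and 22.9 CPM in spleen (5.55-fold), and Oasl1 at 4.2, 4.05 and 3.51 and 18.5, 18.1 and 18 CPM (4.55-fold). For Oasl2 tumor replicate 3 was the highest of its group and for Oasl1 the lowest. Oas1a, which encodes an active synthetase, was at 14.9, 14.9 and 13.7 CPM in tumor and 48.9, 50.8 and 53.7 CPM in spleen, and Oas1g at 8.12, 8.39 and 7.98 and 29.2, 29.7 and 32.5 CPM. Oas1a and Oas1g, which share 57.6% of the 50-base words of Oas1a, summed to 22.6 ± 0.856 CPM in tumor against 81.6 ± 4.18 in spleen, a ratio of 3.61. Their promoter windows carry the response element core at near-equal places, -20 and -14 in Oas1a and -18 and -12 in Oas1g. The Oas1, Oas2 and Oas3 genes lie together on chromosome 5 between 120730333 and 120907521, and Oas2 overlaps the opposite-strand model Gm43068.

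**Figure D3:**
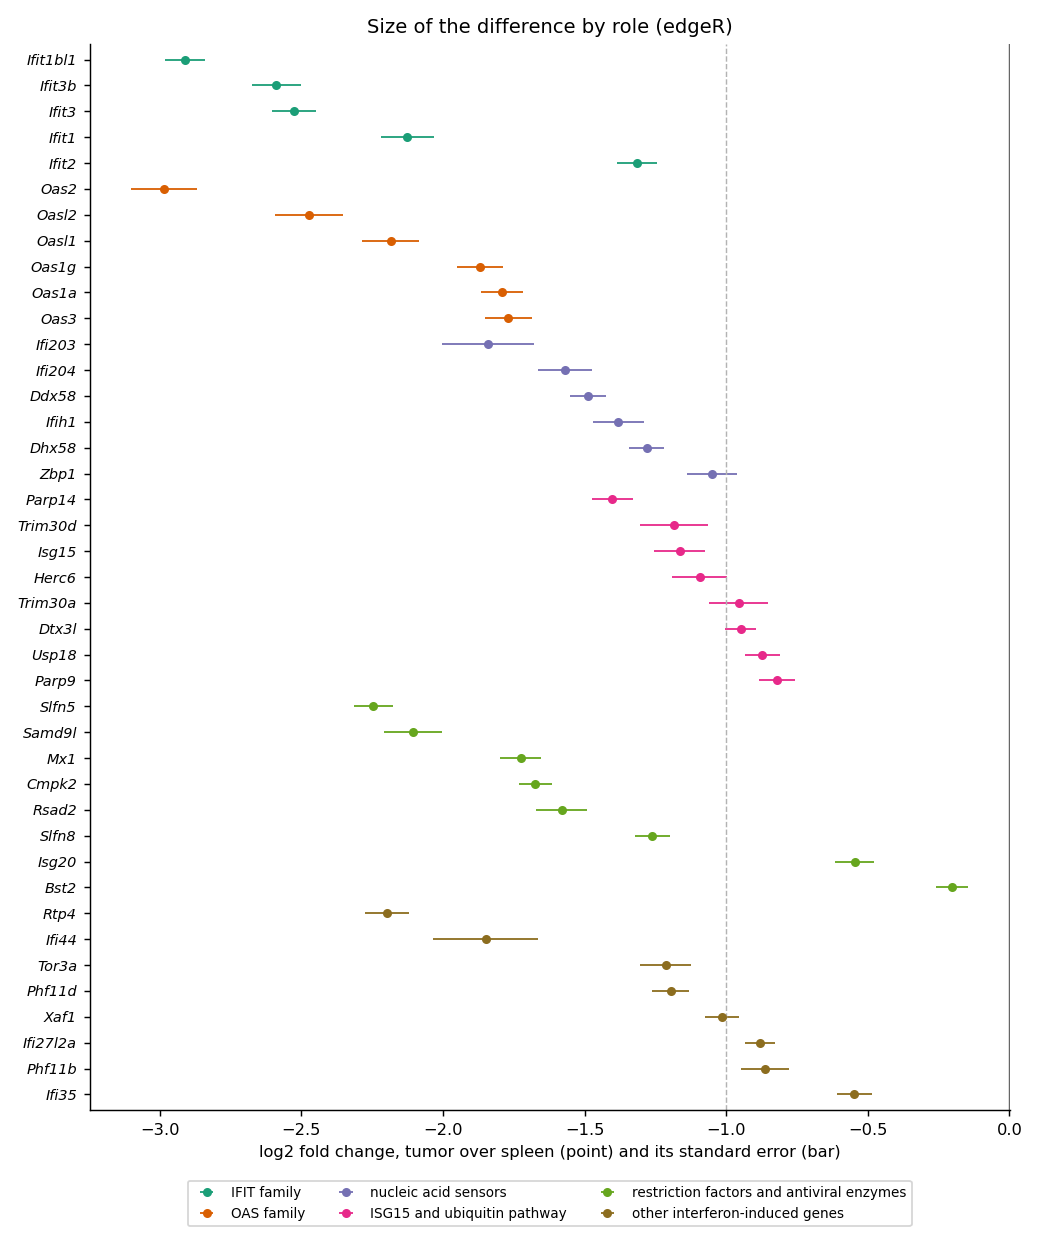
Log2 fold change of tumor over spleen for the 41 genes, with the standard error as a bar, coloured by role and ordered within each role. The dashed line marks a 2-fold difference. Every point is below 0, the IFIT and OAS families reach furthest, and Bst2 (-0.20), Isg20 (-0.55) and Ifi35 (-0.55) lie nearest to 0.

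The nucleic acid sensors were lower by a median log2 fold change of -1.43 (range -1.84 to -1.05, 6 of 6 lower). Ddx58, which encodes RIG-I, the sensor of RNA with a triphosphate end, was at 51.3, 52 and 59.4 CPM in tumor and 155, 157 and 154 CPM in spleen (2.81-fold lower, log2 -1.49, SE 0.06). Ifih1, which encodes MDA5, the sensor of long double-stranded RNA, was at 7.9, 7.63 and 9.23 CPM and 22, 22.7 and 21 CPM (2.6-fold). The third member of this helicase family, Dhx58, encodes LGP2, which has no signalling domain and tunes the other two. It was at 27.8, 29.4 and 28.3 CPM in tumor and 71.4, 73.5 and 67.3 CPM in spleen (2.43-fold). The 3 helicase genes thus differed by similar amounts, with log2 fold changes of -1.49, -1.38 and -1.28. Dhx58 overlaps the opposite-strand model Dhx58os, and the sources used here do not give how the counting used strand. Zbp1, which binds Z-form nucleic acid and can start necroptosis, was at 101, 103 and 80.4 CPM in tumor and 202, 199 and 201 CPM in spleen, and differed least of the 6 genes (2.07-fold). Ifi203 and Ifi204 belong to the PYHIN family of DNA-binding proteins. Ifi203 was at 32.4, 39.5 and 60.3 CPM in tumor and 161, 160.3 and 160.4 CPM in spleen (3.58-fold, SE 0.16 on the log2 scale). Its tumor libraries spread more than those of any other member (coefficient of variation 32.8%), with the highest at 1.86 times the lowest, and the spleen libraries were nearly equal. Ifi204 was at 5.57, 6.72 and 7.04 CPM in tumor and 19.3, 19.2 and 19.9 CPM in spleen (2.97-fold). Ifi203 overlaps its relative Mndal on the same strand, so reads of these 2 genes may not be separable.

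Genes of the ISG15 and ubiquitin pathway were lower by a median log2 fold change of -1.02 (range -1.40 to -0.82, 8 of 8 lower). Isg15, the modifier itself, was at 20.7, 16.6 and 17.9 CPM in tumor and 40.9, 41 and 44.5 CPM in spleen (2.24-fold lower, log2 -1.16, SE 0.09, adjusted p = 5.0e-07). Herc6, the main ligase that attaches ISG15 in mice, was at 21.2, 22 and 28.6 CPM in tumor and 53.3, 52.8 and 49.9 CPM in spleen (2.13-fold). Herc6 overlaps the model Gm45193 on its own strand, and 12.5% of its 50-base words occur in other genes, mainly this model. Usp18 removes ISG15 and also blocks the interferon receptor. It was at 38.6, 39 and 39.7 CPM in tumor and 76, 74.6 and 68.7 CPM in spleen, with the tumor libraries within 1.03 times of each other, and was 1.83-fold lower. The modifier, its ligase and its protease were thus all lower, by close amounts. The enzymes that activate and conjugate ISG15 lie outside the 41 genes, and Uba7 was picked with its values already known. Uba7, the activating enzyme, averaged 75.4 ± 6.74 CPM in tumor against 235 ± 1.94 in spleen (log2 -1.61, SE 0.07). The conjugating enzyme Ube2l6 averaged 8.87 ± 0.376 CPM in tumor against 19.2 ± 0.55 in spleen (log2 -1.09, SE 0.08, with means ± SD over 3 libraries here and below). Parp9, Dtx3l and Parp14 are neighbours on chromosome 16, and the PARP9 and DTX3L proteins form a complex that adds ubiquitin to histones. Parp9 and Dtx3l overlap on opposite strands, with log2 fold changes of -0.82 and -0.95 (SE 0.06 and 0.05), and Parp14, an ADP-ribosyltransferase, was at 49.8, 49.4 and 42.8 CPM in tumor and 128, 126 and 129 CPM in spleen (log2 -1.40, SE 0.07). Trim30a and Trim30d, of the TRIM family of ubiquitin ligases, averaged 60.9 ± 12.2 and 12.9 ± 2.9 CPM in tumor against 120.2 ± 0.185 and 29.9 ± 0.577 CPM in spleen, with tumor replicate 3 the highest of its group for both.

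Restriction factors and antiviral enzymes were lower for 8 of 8 genes and spanned the widest range of the 6 role groups, from -2.25 to -0.20 on the log2 scale (median -1.63). Slfn5, a member of the Schlafen family, which has been linked to T cell quiescence, was at 13.6, 13.4 and 13 CPM in tumor and 66, 66 and 61.8 CPM in spleen (4.74-fold lower). Its relative and neighbour Slfn8 was at 60.4, 62.1 and 70.5 CPM in tumor and 155, 159 and 157 CPM in spleen (2.4-fold). Of the 50-base words of Slfn8, 14.6% occur in other genes, mainly Slfn10-ps. Samd9l, an inhibitor of translation and cell growth, was at 27, 31.6 and 39.1 CPM in tumor and 146, 141 and 141 CPM in spleen. Its tumor libraries were spread, with replicate 3 highest, yet all were below spleen (4.31-fold). Rsad2 encodes viperin, which makes a chain-terminating nucleotide from CTP, and Cmpk2, its neighbour on chromosome 12, encodes a nucleotide kinase. Rsad2 was at 7.82, 8.62 and 10.0 CPM in tumor and 26.8, 26.6 and 27.3 CPM in spleen, and Cmpk2 at 32.6, 32.9 and 31.2 and 105, 104 and 106 CPM. This adjacent pair had close log2 fold changes of -1.58 and -1.67 (SE 0.09 and 0.06). Mx1, a GTPase that blocks influenza virus and is defective as a protein in C57BL/6 mice, was at 11.8, 11.1 and 12.1 CPM in tumor and 40.9, 38 and 39.2 CPM in spleen (3.31-fold). Isg20, an RNA exonuclease, was at 17.5, 16.7 and 18 CPM in tumor and 25.9, 26.3 and 25.5 CPM in spleen (1.46-fold, log2 -0.55, SE 0.07).

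Bst2 differed least of the 41 genes. It encodes tetherin, which holds budding virus at the cell surface and is made by many cells at rest. It was at 98.2, 93.3 and 95.6 CPM in tumor and 110.3, 112 and 115 CPM in spleen. The groups did not overlap, but the lowest spleen library was only 1.12 times the highest tumor library, and the difference was 1.15-fold (log2 -0.20, SE 0.06, adjusted p = 0.0066). Its promoter window holds 2 overlapping matches to the response element core, as shown above, and 1 match to the gamma-activated sequence core.

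The other interferon-induced genes were lower for 8 of 8 (median log2 fold change -1.11, range -2.20 to -0.55). Rtp4, which helps receptors reach the cell surface, was at 18.8, 22.4 and 23.6 CPM in tumor and 102, 98.9 and 102 CPM in spleen (4.59-fold lower). Rtp4 overlaps Masp1 on the opposite strand and the model Gm45338 on its own. Ifi27l2a, which encodes a small hydrophobic membrane protein, was at 203, 209 and 215 CPM in tumor and 399.7, 373 and 404 CPM in spleen. Its difference was under 2-fold (1.84-fold, log2 -0.88, SE 0.05). Ifi44 had few counts, with 1.18, 0.784 and 1.27 CPM in tumor and 3.69, 3.77 and 4.42 CPM in spleen, and had the largest standard error (log2 -1.85, SE 0.19). Tumor and spleen values of Ifi44 were nevertheless apart in all libraries. Ifi35, which forms a complex with NMI, was at 71.9, 75.7 and 68.5 CPM in tumor and 104, 108 and 111 CPM in spleen (1.46-fold). Xaf1, a partner of the apoptosis inhibitor XIAP, was at 24.7, 25.3 and 26.6 CPM in tumor and 52.6, 53.1 and 52 CPM in spleen (2.02-fold), with libraries of a tissue close together. Tor3a, an ATPase of the endoplasmic reticulum, was at 23.8, 19.4 and 19.4 CPM in tumor and 49.3, 50.3 and 48.6 CPM in spleen (2.32-fold). Phf11b and Phf11d, neighbours on chromosome 14 that carry a zinc finger domain, averaged 96.7 ± 14.7 and 27.9 ± 1.88 CPM in tumor against 179 ± 3.1 and 65.1 ± 1.65 CPM in spleen (log2 -0.86 and -1.20). Of the 50-base words of Phf11b, 47.1% occur in other genes, mainly Phf11a, so its own level is uncertain.

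Levels of different genes were compared per length, as mean CPM per kilobase of annotated exon. On this scale Ifi27l2a was highest in both tissues, at 451 in tumor and 847 in spleen. Bst2 (106 and 125) and Phf11b (81.7 and 151) followed in tumor in that order, and in spleen in the reverse order. Isg15 was at 24.4 in tumor and 55.7 in spleen per kilobase, Ifit3 at 9.96 and 58.5, and Ifi44 was lowest at 0.176 and 0.646. By these values Ifit3 per kilobase was near Isg15 in spleen and well below it in tumor. Of the 50-base words of Ifit3 and Phf11b, 51.2% and 47.1% occur in other genes, so their places in this order are uncertain.

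Position in the genome grouped many of the genes. With members counted as neighbours when at most 200 kb apart, 24 of the 41 formed 9 clusters. The members of a cluster were close in size of difference in some, such as Rsad2 and Cmpk2 on chromosome 12 (-1.58 and -1.67) or Ifi204 and Ifi203 on chromosome 1 (-1.57 and -1.84). In others they were apart, as in the Ifit cluster (-1.31 to -2.91) and for Slfn8 and Slfn5 on chromosome 11 (-1.26 and -2.25).

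The spread between libraries was larger in tumor. The median coefficient of variation of the 41 genes was 9.25% in tumor and 2.08% in spleen. Over all 19783 genes tested the medians were 10.1% and 5.48%, so a larger spread in tumor was not particular to the 41 genes. Over the 14783 tested genes whose mean tumor level lay within the range of the members, the medians were 8.71% and 4.51%. Tumor replicate 3 was the highest tumor library for 27 of the 41 genes (65.9%), against 41.3% of all genes tested, and the lowest for 11. It was either the highest or the lowest for 92.7% of the 41 genes and for 76.7% of all genes tested. The genes it was highest for include Ifi203, Samd9l, Trim30a and Phf11b, and those it was lowest for include Oas2, Oas3, Zbp1 and Parp14. The tumor libraries therefore did not differ by 1 common factor across the list.

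**Figure D4:**
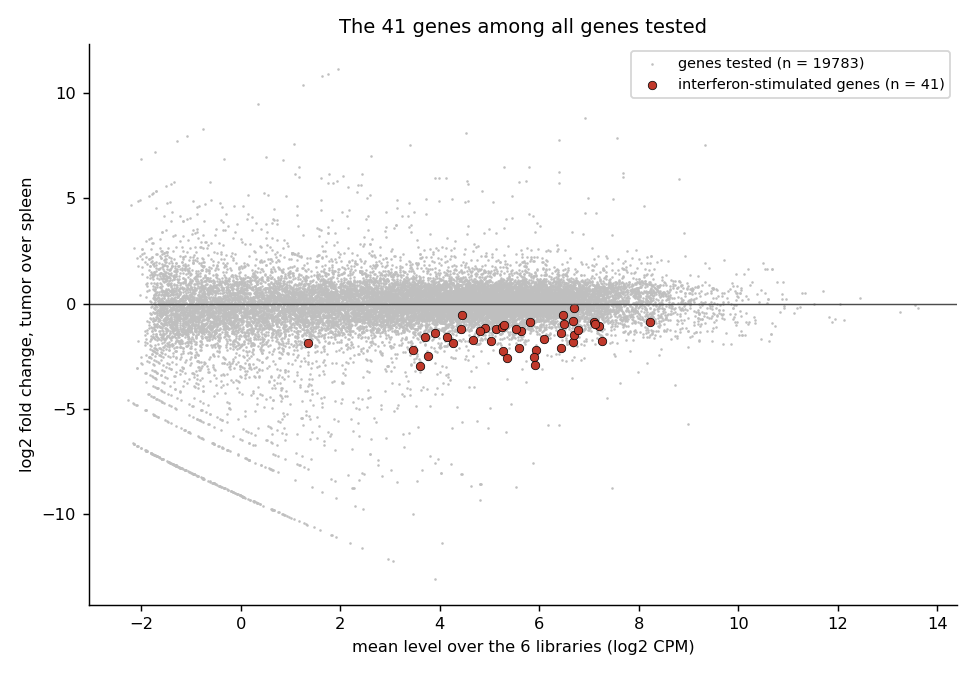
Log2 fold change of tumor over spleen against the mean level over the 6 libraries (log2 CPM), with the 19783 genes tested in grey and the 41 interferon-stimulated genes in red. The red points lie below 0 across their whole range of levels, among many other lower genes, some of which fell further. The grey diagonal lines are genes with few or no counts in 1 tissue.

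Upstream of these genes, the ligands, receptors and signalling proteins were read from lists of pathway genes. Of 21 interferon ligand genes, 16 had 0 counts in all 6 libraries (Ifnb1, 13 Ifna genes, Ifnab and Ifnk), and Ifne had 1 count, in tumor. Ifnz had 6 counts in tumor and 7 in spleen, and Ifnl2 and Ifnl3 had 1 each, in spleen. Type I ligand transcripts beyond those counts were not detectable at this depth, since 0 observed counts leave room for 3 counts, or 0.0784 to 0.0855 CPM by library (counting error only). Ifng, the gene of interferon gamma, was the only ligand that could be tested. It was at 305, 345 and 374 CPM in tumor and 11.7, 10.8 and 11 CPM in spleen, and so rose in tumor (log2 fold change 4.96, SE 0.08, adjusted p = 3.0e-12) in the same libraries in which the 41 genes were lower.

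Both chains of the type I interferon receptor were lower. Ifnar1 was at 128, 132 and 122 CPM in tumor and 183, 179.8 and 178 CPM in spleen (log2 -0.48, SE 0.06), and Ifnar2 at 63.5, 67.8 and 64.4 and 104, 108 and 102 CPM (log2 -0.65, SE 0.06). Of the receptor for interferon gamma, Ifngr1 was higher in tumor (0.38, SE 0.05) and Ifngr2, its signalling chain, was lower (-2.24, SE 0.13), with means of 1.83 ± 0.258 CPM in tumor against 8.81 ± 0.413 in spleen. Il10rb was lower (-0.63), and Ifnlr1 did not pass the filter on low counts.

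Of 11 kinases and transcription factors of the pathway, 10 were lower in tumor and 1 was higher. Stat2 was at 47.6, 47.1 and 41.8 CPM in tumor and 104, 101 and 100.4 CPM in spleen (log2 -1.13, SE 0.07). Its partner Irf9 was at 56.9, 58.2 and 60.0 CPM in tumor and 158, 156 and 157 CPM in spleen (log2 -1.40, SE 0.05), and for both genes the tissues were well apart. Irf7, which amplifies the response and is itself interferon-induced, differed most, with 70.5, 72 and 64.7 CPM in tumor and 248, 239 and 248 CPM in spleen (log2 -1.80, SE 0.06, adjusted p = 7.6e-10). Irf1 (-1.35), Jak1 (-0.85), Irf5 (-0.78), Jak2 (-0.72), Irf3 (-0.56) and Tyk2 (-0.47) were lower by smaller log2 fold changes than Irf7. Stat3, which cytokines of the IL-6 and IL-10 families activate, was the 1 higher gene, at 735, 764 and 749 CPM in tumor and 294, 293 and 297 CPM in spleen (log2 1.38, SE 0.05).

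In the list of 10 negative regulators, 5 were lower, 1 was higher and 4 did not pass. Of all genes tested, 35.9% were lower and 34.8% were higher. Socs3, an inhibitor of cytokine receptor signalling, was lower (-1.64, SE 0.08). So was Ube2l6, which is on this list although its product conjugates ISG15, so the 5 lower genes are not inhibitors alone. Ptpn11, a phosphatase, was the higher gene (0.19, SE 0.06), a call that was lost under 4 of 13 alternatives (adjusted p from 0.050 to 0.071 under upper-quartile scaling and without spleen replicate 1, 2 or 3). Socs1, 1 of the 5 lower genes (log2 -0.29, adjusted p = 0.021), lost its call without tumor replicate 2, spleen replicate 1 or spleen replicate 2 (adjusted p from 0.070 to 0.083). Of 13 sensors and adaptors upstream of interferon production, 9 were lower and 0 higher. Ikbke, a kinase that phosphorylates IRF3, averaged 42.9 ± 3.92 CPM in tumor against 150.1 ± 2.3 in spleen (log2 -1.78, SE 0.08). Tlr7, an RNA receptor of B cells and dendritic cells, averaged 0.393 ± 0.166 CPM in tumor against 4.91 ± 0.314 in spleen, beside the lower B cell and dendritic cell markers given above, whose part in it was not tested. Mavs, the adaptor of RIG-I and MDA5, averaged 40.6 ± 2.12 CPM in tumor against 40.9 ± 1.21 in spleen (log2 0.02, SE 0.07, adjusted p = 0.79). The DNA sensor gene Cgas did not pass either (log2 -0.02, SE 0.08), and both genes were singled out after their values were seen.

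**Figure D5:**
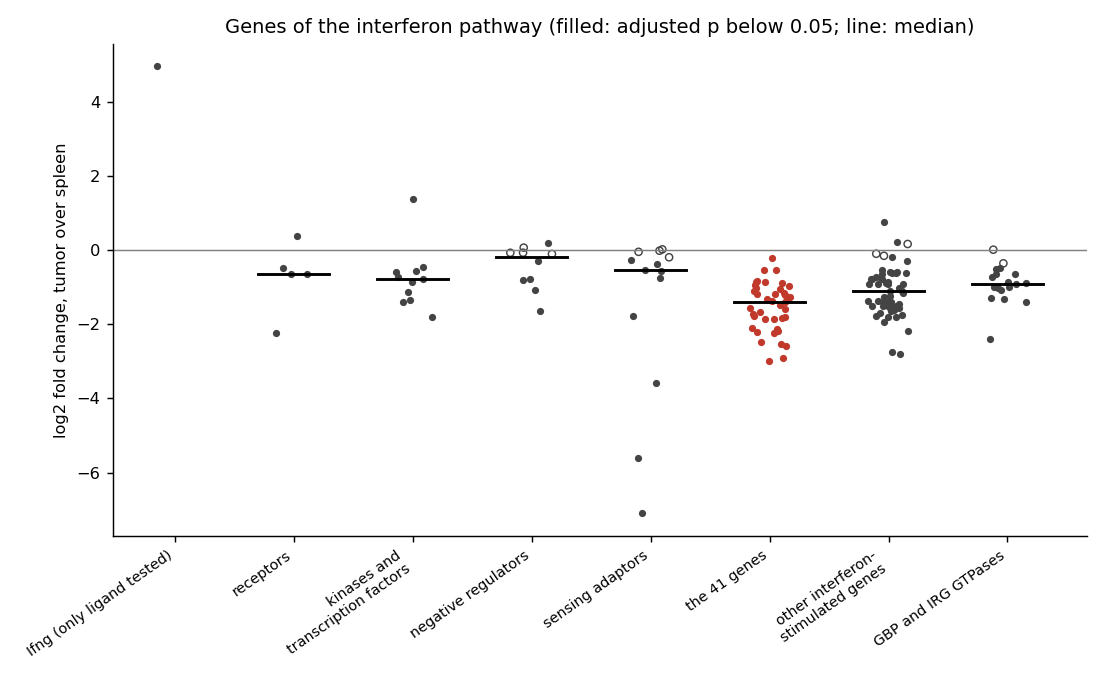
Log2 fold change of tumor over spleen for Ifng and for the tested genes of 6 pathway lists, with the 41 genes in red. Filled points passed at an adjusted p below 0.05, open points did not, and black lines are medians. Ifng is at 4.96, the 41 genes have a median of -1.40, and the 2 lowest sensing adaptors, Tlr3 and Tlr9, had 3 and 0 counts in tumor, so their fitted values are not measured sizes.

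Interferon-stimulated genes outside the 41 were lower too, for 50 of 55 tested, with 2 higher and 3 not passing (median log2 fold change -1.11). The count was 49 without tumor replicate 2, spleen replicate 1 or spleen replicate 3, where Ly6a (log2 -0.18) did not pass (adjusted p from 0.062 to 0.090). By the smallest p these were led by Ifi208, of the PYHIN family, averaging 56.9 ± 5.14 CPM in tumor against 221 ± 4.56 in spleen (log2 -1.93, SE 0.07), and Ly6c2, a surface marker of memory and effector CD8+ T cells, with 583 ± 25.1 against 1686 ± 55.9 CPM (log2 -1.51, SE 0.05). The 2 higher genes were Aim2, a sensor of cytosolic DNA (log2 0.75, SE 0.08), and Ifi27 (log2 0.22, SE 0.06), with 77.3 ± 1.72 CPM in tumor against 67.8 ± 2.38 in spleen. Ifi27 and Ifi27l2a, relatives in 1 gene family, thus had log2 fold changes of opposite sign. The GBP and IRG GTPases, which interferon gamma induces strongly, were lower for 16 of 18 genes with 0 higher (median -0.90), among them Gbp9 (-1.41, SE 0.06) and Irgm2 (-1.09, SE 0.06). Their difference from the 41 genes was not tested.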

How the data were processed

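Gene counts of 6 libraries (single reads of 50 bp) were analysed. The deposited values are whole-number counts per gene, not normalized by the authors; featureCounts, STAR 2.3, bcl2fastq 2.20.0.422 and build mm10 are listed in the submitters' processing notes. The sources used here do not give the annotation release, strand setting or treatment of multiply matching reads. Symbols and coordinates came from GENCODE M21 (54587 of 55335 identifiers matched with version). Genes were tested by edgeR's quasi-likelihood method (version 4.0.16, R 4.3.3) with TMM scaling (filterByExpr with a minimum count of 10 and total of 15, Benjamini-Hochberg adjustment over 19783 genes, threshold 0.05), with tissue as the factor. Fold changes are tumor over spleen; SE is the absolute log2 fold change over the square root of F. CPM is a count over the library total, with mean ± SD and n = 3.

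Whether libraries came from separate mice is not in the labels, and p-values therefore measure spread between these samples alone, which may be technical. Every pair of libraries differed by more than counting noise (chi-square per degree of freedom from 2.11). Tumor and spleen libraries of equal number had deviations that correlated at -0.00079, 0.016 and 0.0024, so the numbers were not taken as pairs. These values cannot show that the samples are independent. Tumors and spleens were of the same mice, and the sources used here do not give which libraries share a mouse. The main fit treats all libraries as independent, so its p-values ignore any pairing by mouse. Counts were simulated for 19783 genes of this comparison, of which 200 were changed. Of the 1.5-fold, 2-fold and 4-fold changes, 70.4%, 85.7% and 95.2% were recovered, and 0.046% of unchanged genes were called. In the data 35.9% of genes were lower and 34.8% higher. This is a far larger share than was changed in the simulation, so its rates may not carry over to the data. Alternatives were other scalings, no filter, DESeq2 1.42.0, limma-voom (limma 3.58.1), a 2-fold null, a replicate block and leaving out each library. Permutation tests used SciPy 1.17.1. The 41 genes and all lists were chosen with earlier results of these data known. All 41 genes could be named; of other pathway lists, receptors, kinases, transcription factors and ligands with counts, and the 2 smallest p in each direction elsewhere; of marker lists, the most abundant gene and those at 0. The values of 1 pathway gene are not reported here. Motifs were searched in RefSeq windows, and 50-base words in GENCODE M21 transcripts.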

Additional observations from a re-analysis of the deposited data

How the results depend on the processing

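All 41 genes stayed lower and past the threshold under RLE and upper-quartile scaling, library totals alone, no low-count filter, DESeq2, limma-voom, the replicate block and each of the 6 fits that left out 1 library, with adjusted p of at most 0.037 for any member. Against a null of a 2-fold change, 27 of the 41 genes and 27 of the other interferon-stimulated genes passed, in place of 41 and 50, since that test asks for more than 2-fold. The 14 members that did not pass it include Isg15, Isg20, Bst2, Usp18 and Zbp1. Of all genes tested, 9.42% were lower by that test. The median log2 fold change of the 41 genes lay between -1.45 and -1.39 under these settings, beside a median of all tested genes between -0.07 and -0.02, or -0.15 without the filter. With the replicate block, 41 members and 50 other interferon-stimulated genes were lower, so the block changed no call among them. Leaving out 1 library gave 41 members lower each time, 49 to 50 other interferon-stimulated genes lower, and a log2 ratio of the summed CPM (tumor over spleen) from -1.34 to -1.28, against -1.31 with all libraries, -1.28 with TMM sizes and -1.36 without Ifi27l2a. Low counts limit Ifi44, with 30 to 46 counts per tumor library. With 3 libraries against 3, 0.1 is the smallest permutation p.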

Other observations

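Interferon-induced chemokine genes had few counts. Cxcl10 averaged 2.25 ± 0.715 CPM in tumor against 4.26 ± 0.608 in spleen (log2 -0.89, SE 0.20, adjusted p = 0.0022, edgeR, n = 3 each), Cxcl9 was lower as well (log2 -1.98), and Cxcl11 had 3 counts in tumor and 0 in spleen. Irf8, an interferon regulatory factor of activated T cells, B cells and dendritic cells, was higher in tumor, at 415 ± 26.2 CPM against 97.1 ± 1.01 CPM (log2 2.13, SE 0.07). It made up most of the summed level of the plasmacytoid dendritic cell list in tumor (410 to 464 CPM), while Siglech, Klk1 and Cd300c of that list had 0 counts there. Siglech had 48 counts over the spleen libraries.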
